A study of Mus musculus with 6 samples.

Results

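The rod phototransduction activation genes are the genes that carry the light signal of a rod from the visual pigment to the membrane. They were chosen by name as the rows Gnat1, Gnb1, Gngt1, Pde6a, Pde6b, Pde6g, Cnga1 and Cngb1 of a table of raw RNA-seq counts, 8 of its 24062 gene symbols. The rule uses names and no measured value, but the list was drawn up with earlier results of these data known. In a rod, a photon changes the visual pigment, which activates the heterotrimeric G protein transducin (Gnat1, Gnb1 and Gngt1 encode its alpha, beta and gamma subunits). The free alpha subunit releases the inhibition of the cGMP phosphodiesterase PDE6 (catalytic subunits from Pde6a and Pde6b, inhibitory subunit from Pde6g), cGMP falls, and the cyclic nucleotide-gated channel of the outer segment (Cnga1 and Cngb1) closes, which hyperpolarizes the cell. Most of these genes are strongly restricted to rods in the mature retina, and loss of Pde6b or Pde6a is a known cause of rod degeneration in mice and humans.

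RNA-seq libraries were made from whole retinae of mice at postnatal day 21, 3 from the Rb1/p107/Hells TKO and 3 from the Rb1/p107 DKO, to ask how loss of Hells changes the transcriptome of retinae that lack Rb1 and p107 and go on to form retinoblastoma. TKO retinae (Chx10-Cre Rb1/p107/Hells) carried homozygous floxed Rb1 and floxed Hells alleles and a germline null p107. DKO retinae (Chx10-Cre Rb1/p107) carried the same Cre, floxed Rb1 and null p107 alleles. Their label names no Hells allele, and whether these mice carried a floxed copy of Hells is not stated. Mice were on a C57BL/6 background. Both groups therefore shared the Cre, the Rb1 deletion and the p107 loss, and no wild-type retina entered the comparison. Chx10-Cre acts in a mosaic of retinal progenitors, so that every retina also held cells that had not recombined, and p107 was absent from those cells too. Hells, the targeted gene, was at 60.8, 68.4 and 83.5 normalized counts in the TKO retinae (replicates 1, 2 and 3). It was at 678, 523 and 395 in the DKO retinae, each above every TKO retina. Counts over the whole gene do not show the deletion itself, and 5 of 5 markers of dividing cells were also lower in TKO retinae. The Hells counts therefore do not by themselves establish the genotype of a library.

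A library held between 10343907 and 14203098 counts. Normalized counts are the counts divided by the library size after TMM scaling, brought to the mean library size, and they apply to every level below unless another scale is named. The spread between replicates was larger than counting error (chi-square divided by its degrees of freedom 8.61 to 25.3 for pairs of replicates). TKO replicate 3 and DKO replicate 3 stood apart from the other replicates of their genotypes in the direction of the opposite group. Each member was lowest among TKO retinae in replicate 3, at 0.520 to 0.638 of the mean of TKO replicates 1 and 2. Each was highest among DKO retinae in replicate 3, at 1.42 to 1.95 times the mean of DKO replicates 1 and 2.

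All 8 genes were higher in TKO than in DKO retinae, with fold differences from 2.58 (Gnb1) to 4.07 (Pde6b). A gene was called when edgeR's quasi-likelihood test gave an adjusted p of 0.05 or less over the 16904 genes tested. This held for 8 of 8 members, all higher, where 7.35% of all genes tested were called higher and 9.20% lower. The study set 3 criteria on DESeq2 results. These were adjusted p up to 0.05, log2 fold change of 1 or more in size and mean normalized count of 10 or more. Applied here to the edgeR fit, the 3 criteria were also met by 8 of 8, against 1.97% of all genes higher and 4.38% lower. The lowest TKO retina lay above the highest DKO retina for 8 of 8, a separation found in 18.0% of all genes, while 20.6% were separated the other way. The median log2 fold change of the members was 1.73, where the median of all genes tested was -0.011. With libraries scaled by total counts alone the split of all calls moved from 1243 higher and 1556 lower genes to 778 and 2610, the median of all genes moved to -0.17, and 8 of 8 members were still called higher. In whole retinae a larger number of rods and more RNA per rod cannot be told apart. With 1 retina left out the members stayed higher in TKO, with log2 fold changes from 1.18 to 2.34, but fewer of them passed the test when some retinae were missing. It was passed by 5 of 8 without TKO replicate 2, by 4 without DKO replicate 1 and by 4 without DKO replicate 2, where the largest adjusted p from edgeR was 0.0580. Without TKO replicate 3 or without DKO replicate 3, 8 of 8 passed, with log2 fold changes from 1.60 to 2.26 and from 1.56 to 2.34.

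**Figure D1:**
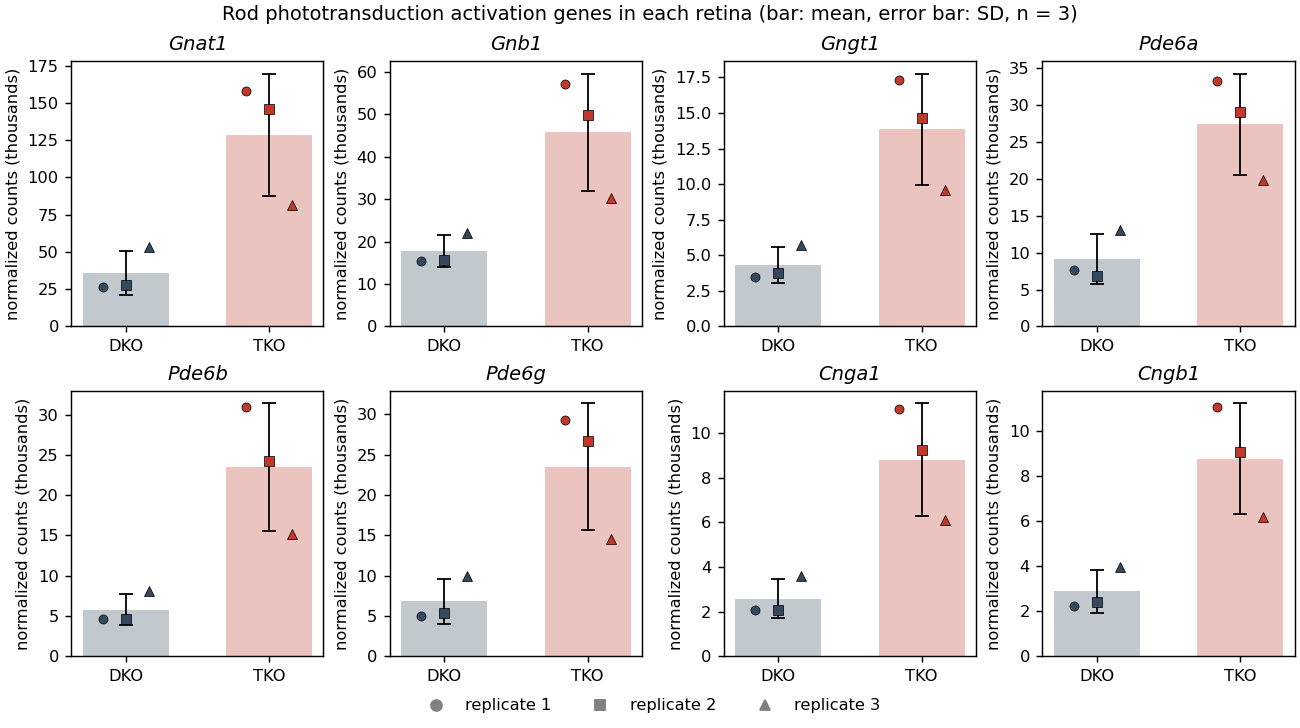
Normalized counts (vertical axis, scaled as marked) of the 8 genes in the 3 DKO and 3 TKO retinae. Points are retinae (circle, square and triangle for replicates 1, 2 and 3), bars the group mean and error bars the SD (n = 3). In every panel the lowest TKO retina, replicate 3, lies above the highest DKO retina, replicate 3.

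**Figure D2:**
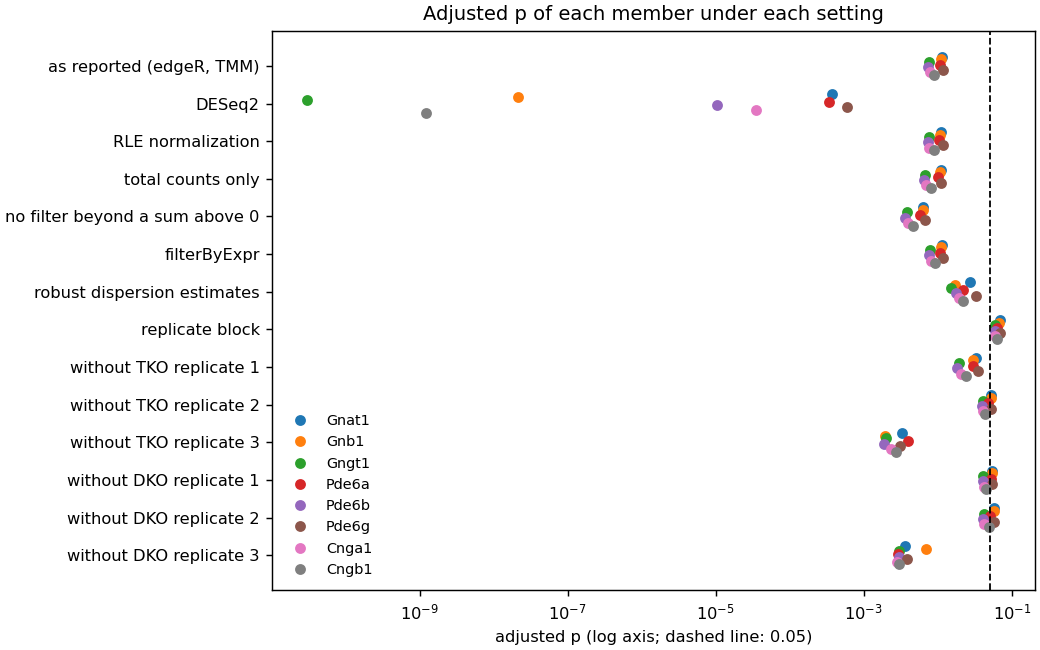
Adjusted p of the 8 genes (horizontal log axis, dashed line at 0.05) in the comparison as reported, under other tools, scalings and filters, and with each retina left out. Each point is a gene. All 8 lie left of the line in the fits with 6 retinae and no replicate block, and some lie right of it without TKO replicate 2, DKO replicate 1 or DKO replicate 2.

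Promoter sequence was looked at because the members moved together, and CRX, a transcription factor of rods and cones, and NRL, a factor of rods, are known activators of rod genes. RefSeq promoter sequence of GRCm38.p6 was used for 5 members (Gnb1, Gngt1, Pde6b, Cnga1 and Cngb1). In the window from 250 bases before to 50 bases after each RefSeq start, both strands were searched for TAATCC (a CRX core), TGCTGA (an NRL half-site) and TTTCCCGC (an E2F site), and no match overlapped a match to another of these motifs. The 250 bases before the start of the 4 genes with a match are printed from 5′ to 3′ on the strand of the gene, with each match in capitals.

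The transducin gamma gene Gngt1 (chr6:3993758-3994007, plus strand) held a CRX core on the opposite strand, so its reverse complement is in capitals, with its first base at -44 from the start.
Gngt1: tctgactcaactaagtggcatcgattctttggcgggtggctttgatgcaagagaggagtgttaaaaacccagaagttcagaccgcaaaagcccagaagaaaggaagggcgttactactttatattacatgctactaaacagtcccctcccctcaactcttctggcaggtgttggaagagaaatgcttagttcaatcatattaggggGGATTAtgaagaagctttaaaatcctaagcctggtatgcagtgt
The phosphodiesterase gene Pde6b (chr5:108388123-108388372, plus strand) held an NRL half-site at -8.
Pde6b: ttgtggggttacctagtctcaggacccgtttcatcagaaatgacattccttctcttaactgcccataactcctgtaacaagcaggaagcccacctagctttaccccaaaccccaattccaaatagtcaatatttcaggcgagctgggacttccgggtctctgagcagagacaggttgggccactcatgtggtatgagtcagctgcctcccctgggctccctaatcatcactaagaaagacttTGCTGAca
The channel gene Cnga1 (chr5:72642753-72643002, minus strand) held a CRX core at -228.
Cnga1: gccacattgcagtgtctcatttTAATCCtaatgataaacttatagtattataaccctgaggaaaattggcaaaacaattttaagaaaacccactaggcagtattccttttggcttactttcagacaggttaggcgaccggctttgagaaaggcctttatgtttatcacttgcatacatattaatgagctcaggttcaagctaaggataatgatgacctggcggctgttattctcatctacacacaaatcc
The channel gene Cngb1 (chr8:95306586-95306835, minus strand) held CRX cores at -58 and -25.
Cngb1: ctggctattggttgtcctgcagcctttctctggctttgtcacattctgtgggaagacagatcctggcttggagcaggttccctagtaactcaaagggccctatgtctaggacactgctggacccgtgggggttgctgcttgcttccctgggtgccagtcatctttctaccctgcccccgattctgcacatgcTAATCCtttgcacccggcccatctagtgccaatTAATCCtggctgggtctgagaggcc

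The CRX core was thus found in 3 of 5 members with a sequence, against 7.06% of 32851 RefSeq promoter windows of the same length, and the NRL half-site in 1 of 5, against 19.5%. The E2F site was found in 0 of 5, against 1.07%. The CRX core was not particular to the members. Among the lists read below it was in 5 of 8 shutoff genes, 2 of 10 partner genes, 2 of 5 rod transcription factors and 0 of 3 other rod markers with a sequence. It was also in 2 of 4 bipolar and in 3 of 3 pigment epithelium markers, and Best1 and Mitf of the latter were not called. Of the genes with a sequence, 1 of 5 amacrine (Gad1), 1 of 5 cone (Gnat2) and 1 of 5 lens markers (Mip) had it, and these genes were not called. It was in 1 of 3 cone counterparts (Gnat2) and 1 of 2 other G protein beta genes (Gnb5) as well. The dividing cell, microglia, Muller glia, horizontal and ganglion cell markers with a sequence had none. Gnb1, the member with the smallest fold change, had a sequence and matched none of the 3 motifs in its window. A match describes these letters only, and binding was not measured here.

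Of the transducin genes, Gnat1, whose product is the rod-specific alpha subunit that binds PDE6, had the most counts of the members in every library. Its normalized counts were 158000, 146000 and 81440 in the TKO retinae (replicates 1, 2 and 3, the order used from here on) and 26620, 27920 and 53070 in the DKO retinae. The groups did not overlap, and TKO replicate 3 was 1.53 times DKO replicate 3. Gnat1 rose by a log2 fold change of 1.84 (SE 0.335, edgeR adjusted p = 0.0114), from 35870 ± 14910 in DKO to 128500 ± 41180 in TKO retinae (SD, n = 3 each). On GRCm38 the gene spans 107674474 to 107679712 of chromosome 9, minus strand.

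Gnb1 encodes a beta subunit that many other cell types also use, so its counts in a whole retina do not come from rods alone. It had 57110, 49870 and 30380 normalized counts in the TKO and 15530, 15590 and 22060 in the DKO retinae. This was the narrowest separation among the members, with TKO replicate 3 at 1.38 times DKO replicate 3. Its log2 fold change of 1.37 (SE 0.246, 95% interval 0.81 to 1.93, edgeR adjusted p = 0.0110) was the smallest of the 8. Gnb1 spans 155491361 to 155559269 of chromosome 4, plus strand.

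Gngt1, the rod gamma subunit that anchors the beta subunit to the disc membrane, had 17310, 14610 and 9592 normalized counts in the TKO and 3448, 3723 and 5732 in the DKO retinae. The groups were separated by a factor of 1.67 between their nearest retinae. Its log2 fold change was 1.69 (SE 0.257, edgeR adjusted p = 0.00755). The gene spans 3993792 to 3997436 of chromosome 6, plus strand, and its RefSeq start lies inside the GENCODE gene. Most of the printed Gngt1 window, with its CRX core, is therefore within the annotated gene.

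Of the PDE6 genes, Pde6a encodes the alpha catalytic subunit and lies on chromosome 18. It had 33250, 29000 and 19860 normalized counts in the TKO and 7621, 6822 and 13060 in the DKO retinae, with TKO replicate 3 at 1.52 times DKO replicate 3. Its log2 fold change was 1.58 (SE 0.277, edgeR adjusted p = 0.0106). Pde6b encodes the beta catalytic subunit, the partner of the alpha subunit in the rod enzyme, and changed most among the members. It had 31000, 24230 and 15210 normalized counts in the TKO and 4635, 4651 and 8030 in the DKO retinae. The nearest retinae of the groups were 1.89-fold apart, the widest gap of the 8. Pde6b rose by a log2 fold change of 2.02 (SE 0.302, 95% interval 1.33 to 2.72, edgeR adjusted p = 0.00733), from 5772 ± 1955 to 23480 ± 7921 (SD, n = 3 each). It spans 108388391 to 108432397 of chromosome 5, plus strand.

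Pde6g, the small inhibitory subunit that active transducin alpha displaces, had 29300, 26630 and 14540 normalized counts in the TKO and 5026, 5363 and 9974 in the DKO retinae. Among the members it had the lowest TKO replicate 3 relative to the mean of the other TKO retinae (0.520), and the gap between the groups was 1.46-fold. Its log2 fold change was 1.79 (SE 0.330), with the largest edgeR adjusted p of the members, 0.0119. Pde6g spans 120447605 to 120453500 of chromosome 11, minus strand.

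Of the channel genes, Cnga1, the alpha subunit that forms a conducting channel, had 11080, 9267 and 6095 normalized counts in the TKO and 2082, 2052 and 3577 in the DKO retinae, and its groups were 1.70-fold apart. Its log2 fold change was 1.78 (SE 0.275, edgeR adjusted p = 0.00780). Cngb1 encodes the beta subunit, which modulates the channel and is needed to bring it to the outer segment. It had 11070, 9090 and 6196 normalized counts in the TKO and 2250, 2404 and 3966 in the DKO retinae. Its log2 fold change was 1.61 (SE 0.267, edgeR adjusted p = 0.00901). The Cngb1 locus also gives the soluble glutamic acid-rich (GARP) proteins of rods, and counts on the gene do not tell these transcripts from the channel subunit. Cnga1 spans 72603696 to 72644275 of chromosome 5 and Cngb1 spans 95239045 to 95306585 of chromosome 8, both on the minus strand. The RefSeq start used for the Cnga1 promoter lies inside the GENCODE gene, so that the printed window and its CRX core are within the annotated gene.

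No exon of a member overlapped an exon of another annotated gene on either strand. Between 0 and 1.98% of the 50-base stretches of a member's transcripts also occurred in transcripts of another gene, most for Pde6g. The smallest count of any member in any library was 2212 (Cnga1 in DKO replicate 1).

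The members together took a large share of each library. They held 2.51, 2.28 and 1.44% of all counts in the TKO retinae and 0.565, 0.582 and 0.974% in the DKO retinae. The shares did not overlap, and their means of 2.08 ± 0.561% and 0.707 ± 0.232% (SD, n = 3 each) differed by 1.37 percentage points, a ratio of 2.94 (exact permutation test, two-sided, p = 0.1, the smallest p that 3 retinae against 3 allow). Gnat1 alone held 0.953 ± 0.271% of the counts in TKO and 0.298 ± 0.117% in DKO retinae.

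Levels of different members were compared per length, as TPM (counts per length, scaled to 1 sum in every library) computed here from the counts and the union of each gene's annotated exons. In TKO retinae Gnat1 was at 14110 ± 4044 TPM. Gnb1 (3571 ± 958 TPM) and Pde6g (3371 ± 1017 TPM) followed, with Gnb1 above Pde6g within each library. Pde6a (1947 ± 418 TPM), Pde6b (1555 ± 476 TPM) and Gngt1 (1312 ± 327 TPM) came next, in this order within each TKO library. The channel subunits were lowest, Cnga1 at 464 ± 117 TPM and Cngb1 at 313 ± 76.9 TPM (SD, n = 3 for each value). In DKO retinae the levels ran from 4333 ± 1667 TPM for Gnat1 to 113 ± 33.7 TPM for Cngb1 (SD, n = 3 each). The order of the genes was the same in the 6 libraries except for Pde6b and Gngt1, since Pde6b was above Gngt1 in the TKO retinae (2022, 1572 and 1070 against 1615, 1355 and 965 TPM) and below it in the DKO retinae (350, 342 and 571 against 373, 391 and 583 TPM). These levels depend on the length used. With the longest annotated transcript as the length, Pde6g was at 2592 and Cnga1 at 800 TPM in TKO retinae, Pde6b (523 TPM) was above Gngt1 (513 TPM) in DKO replicate 3, and Pde6b (1854 TPM) was above Pde6a (1771 TPM) in TKO replicate 1.

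Whether the members rose by equal amounts was read from the ratio of each member's counts to those of Gnat1 in the same library, which needs no scaling between libraries. The log2 ratio of Gnb1 to Gnat1 was -1.47, -1.55 and -1.42 in TKO and -0.78, -0.84 and -1.27 in DKO retinae, so Gnb1 took a smaller place beside Gnat1 in each TKO retina than in any DKO retina. The difference was -0.52, the largest of the 7 ratios in size. The ratios of Pde6a (difference -0.25) and Pde6g (difference -0.058) also did not overlap, both lower in TKO, while those of Gngt1 (-0.18), Cngb1 (-0.24), Cnga1 (-0.073) and Pde6b (0.16) overlapped. Exact permutation tests (two-sided) gave p = 0.1 for the 3 ratios that did not overlap, the smallest p possible, and an adjusted p of 0.233 over 7 ratios. No ratio therefore passed a threshold of 0.05. With the sum of the 8 members in place of Gnat1, the differences of Pde6g and Cnga1 changed sign, to 0.079 and 0.065, while Gnb1 remained lower in TKO (-0.38) and Pde6b was higher (0.29), both without overlap.

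**Figure D3:**
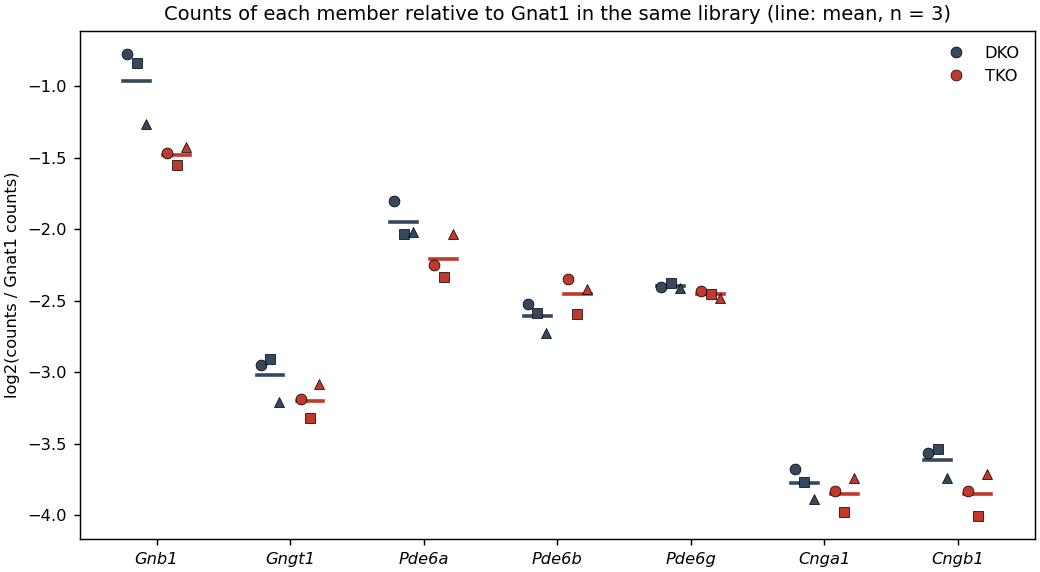
Log2 ratio of the counts of each of 7 genes to the counts of Gnat1 in the same library (vertical axis) in 3 DKO and 3 TKO retinae. Points are retinae (circle, square and triangle for replicates 1, 2 and 3) and lines are group means (n = 3). Gnb1 is lower in each TKO than in each DKO retina, and the ratio of Pde6g varies least.

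Subunits of the same complex were then set against each other as ratios of counts, pairs that were formed after the values had been seen. Pde6b had 0.932, 0.836 and 0.766 counts for each count of Pde6a in the TKO retinae, and 0.608, 0.682 and 0.615 in the DKO retinae. Cnga1 had 1.00, 1.02 and 0.984 counts for each count of Cngb1 in TKO and 0.925, 0.854 and 0.902 in DKO retinae. Both ratios were higher in each TKO than in each DKO retina. Gngt1 per Gnb1 (0.304 ± 0.0114 against 0.240 ± 0.0189) and Gnat1 per Gnb1 (2.79 ± 0.125 against 1.97 ± 0.379) were also higher in TKO without overlap (SD, n = 3 each), while Pde6g per Pde6a overlapped (0.844 ± 0.0983 against 0.736 ± 0.0676). A further ratio crossed complexes and set the member with the largest fold change over the one with the smallest. This ratio, Pde6b per Gnb1, was 0.510 ± 0.0296 against 0.320 ± 0.0378 (SD, n = 3 each), also without overlap. Of these 6 ratios, 5 did not overlap, each with p = 0.1 from an exact permutation test (two-sided) and 0.12 after adjustment over the 6. The ratios to Gnb1 share its counts and are not independent.

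Across the 6 libraries the centred log2 profiles of the members were close to each other. The root mean square difference of a member from the mean profile of the others was smallest for Cnga1 (0.0498 log2 units) and largest for Gnb1 (0.240) and Pde6b (0.179). Outside the members, the 5 genes nearest to their mean profile were LOC102308570 (0.0442 log2 units), the water channel gene Aqp1 (0.0596), Ankrd33b (0.0616), the photoreceptor receptor kinase gene Grk1 (0.0697) and Gm11744 (0.0729), measured over 6 libraries. These libraries share 2 genotypes, and any gene with a like group difference lies near this profile.

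Of a list of 11 genes that end the rod response and restore cGMP, 11 were called higher and 0 lower in TKO retinae, with a median log2 fold change of 1.60. The 3 with the most counts were Sag (rod arrestin, 1.63), Grk1 (1.67) and Rgs9 (the GTPase activator of transducin alpha, 1.16), given as log2 fold changes. Sag had 135100, 94530 and 67790 normalized counts in TKO and 27840, 22800 and 45220 in DKO retinae, again without overlap and with replicate 3 of each genotype nearest to the other. With 1 retina left out, 7 of these 11 genes were called without TKO replicate 2, 5 without DKO replicate 1, 4 without DKO replicate 2 and at least 10 in the other fits.

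The genes that fold, lipidate and transport transducin and PDE6 moved less evenly. Of 10 such genes, 6 were called higher, 0 lower and 4 were not called, with a median log2 fold change of 0.67. Pdc (phosducin, which binds transducin beta-gamma) had the largest log2 fold change, 2.10, followed by Unc119 (1.48) and the PDE6 chaperone gene Aipl1 (1.31). Unc119 carries acylated transducin alpha. The carboxymethyltransferase gene Icmt had 1.14, the small GTPase gene Arl3 0.73 and the prenyl-binding gene Pde6d 0.61. The genes not called were Rce1 (0.41), the transducin beta-gamma chaperone gene Pdcl (0.23), the G alpha chaperone gene Ric8a (listed as Ric8, 0.14) and Rp2 (listed as Rp2h, -0.28). Scaling by total counts alone moved Ric8a to -0.014. With 1 retina left out, 7 of the 10 were called higher without replicate 3 of either genotype, 2 without TKO replicate 1 and 1 in each of the other fits.

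**Figure D4:**
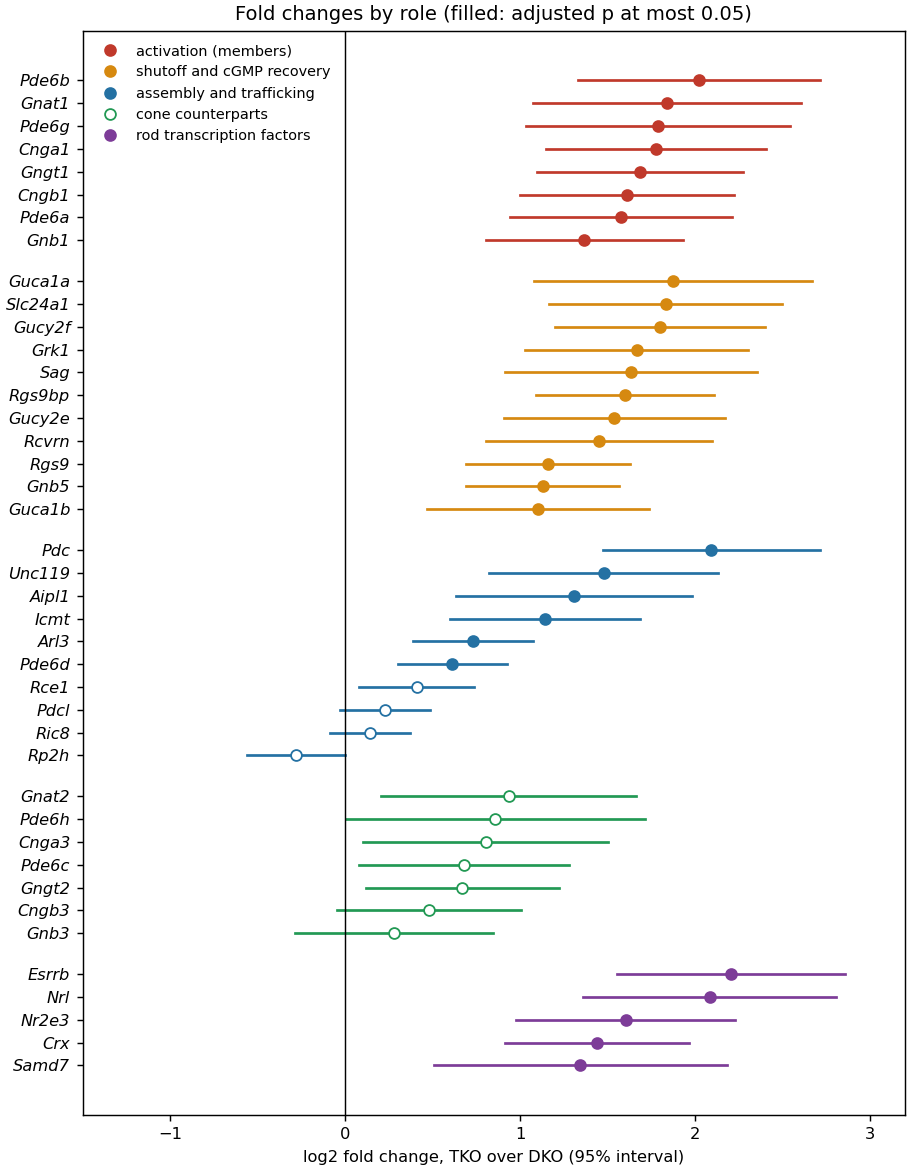
Log2 fold changes of TKO over DKO retinae (horizontal axis, points) with 95% intervals (lines) from edgeR for the 8 activation genes and 4 related groups. Filled points were called. The activation genes lie between 1.37 and 2.02, the shutoff genes and the rod transcription factors are filled throughout, and the 7 cone counterparts are open.

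Cones use a paralogous set of proteins. Of the 7 cone counterparts, 0 were called in either direction by edgeR's quasi-likelihood test and 5 had an unadjusted p under 0.05, with log2 fold changes from 0.28 to 0.94 (median 0.68). Gnb3, which ON bipolar cells also use, had 0.28 (adjusted p = 0.465 from edgeR), the cone phosphodiesterase gene Pde6c 0.68 (0.113) and the cone transducin alpha gene Gnat2 0.94 (0.0797). DESeq2 called 2 of the 7 higher (Gngt2 and Pde6c), and with 1 retina left out edgeR called 6 higher without TKO replicate 3, 3 without DKO replicate 3 and 0 in the other fits. The difference between rod and cone genes was tested as the log2 ratio of the counts of each member to those of its cone counterpart, in pairs formed after the values had been seen. The log2 ratio of Gnat1 to Gnat2 was 6.19, 6.68 and 6.63 in TKO and 5.42, 5.31 and 5.75 in DKO retinae. For 8 of 8 pairs the ratio was higher in each TKO than in each DKO retina, by 0.94 (Pde6a to Pde6c) to 1.35 (Pde6b to Pde6c) on the log2 scale (exact permutation test, two-sided, p = 0.1 each and 0.1 after adjustment over 8 pairs). All 8 ratios come from the same 6 libraries, and Pde6a and Pde6b also share the counterpart Pde6c, so the ratios are not independent. The share of other gene pairs separated in this way was not computed.

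The other G protein beta genes moved in different directions. Of 4, Gnb5, the partner of RGS9, was called higher (1.13) and Gnb2, a widely expressed beta gene, was called lower (-0.51, adjusted p = 0.0204 from edgeR). Gnb2 had 1537, 1744 and 2013 normalized counts in TKO and 2367, 2428 and 2755 in DKO retinae, without overlap. Gnb3 (0.28) and Gnb4 (-0.34) were not called. Per length, Gnb1 stood at 3571 ± 958 TPM and Gnb2 at 175 ± 31.3 TPM in TKO retinae (SD, n = 3 each). The call of Gnb2 was lost without TKO replicate 1 or 2 and without DKO replicate 1 or 2, with adjusted p-values from edgeR of up to 0.0825.

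Other genes expressed in rods moved with the members. Of 5 rod transcription factors 5 were called higher (median log2 fold change 1.60, and 3 of 5 called without DKO replicate 2), with Crx at 1.44, Nrl at 2.08 and Nr2e3 at 1.60, and so were 5 of 5 other rod markers (median 1.75), led by the outer segment disc gene Prph2 (1.83). Of the other rod markers 2 of 5 were called when TKO replicate 2 or DKO replicate 1 was left out and 1 of 5 when DKO replicate 2 was. With robust dispersion estimates and all retinae kept, 4 of 5 rod transcription factors were called higher. Crx, Prph2 and Rom1 of these lists are also expressed in cones. Relative to the geometric mean of the 5 transcription factors within each library, Pde6b was higher in TKO by 0.27 and Gnb1 lower by -0.41 and Cngb1 by -0.13 on the log2 scale without overlap, and the other 5 members overlapped. The exact permutation p (two-sided) was 0.1 for these 3 and 0.267 after adjustment over 8 ratios.

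Markers of other cells were read in the same libraries. Summed normalized counts of 5 Muller glia markers were 43040 to 51890 in TKO and 25650 to 28500 in DKO retinae (3 of 5 called higher, led by Glul). Those of 5 dividing cell markers were 377 to 1669 against 4171 to 9104 (5 of 5 called lower), and those of 5 microglia markers 650 to 1043 against 1200 to 1760 (3 of 5 called lower). The dividing cell sum was highest among TKO retinae in replicate 3 and lowest among DKO retinae in replicate 3, where the members were lowest and highest. Sums of amacrine (18130 to 21820 against 19590 to 21240), horizontal (1650 to 2162 against 1771 to 2109) and ganglion cell markers (7603 to 8923 against 6096 to 8392) overlapped, with 0 of 5, 0 of 4 and 0 of 5 called, and bipolar markers (13580 to 18430 against 12740 to 14370) overlapped with 1 of 5 called. Cone markers overlapped too (5445 to 15060 against 3778 to 6168), with 2 of 5 called higher. The Muller glia sum was mostly Glul (log2 fold change 1.15). Of the other Muller glia markers, Rlbp1 (0.76) and Kcnj10 (0.45) were called higher, while Aqp4 (0.28) and Slc1a3 (-0.12) were not called. The horizontal sum was mostly Calb1 (log2 fold change 0.092). Of the other horizontal markers, Onecut1 (-1.24, without overlap, edgeR adjusted p = 0.0511), Lhx1 (-0.87) and Onecut2 (-0.70) were lower in TKO. With all retinae kept, 1 horizontal marker was called lower by DESeq2, with total counts only, with both other filters and with robust dispersion estimates. Markers of tissue next to the retina were present: 5 lens markers summed to 418 to 2898 in TKO, highest in replicate 2, and to 44.7 to 50.9 in DKO retinae, with Lim2 at 0 in TKO replicate 1 and in the 3 DKO retinae. The 5 pigment epithelium markers summed to 687 to 1934 against 240 to 879, and 3 of 5 lens and 1 of 5 pigment epithelium markers were called higher. The part of these cell types in the difference of the members was not tested. Several of these counts of calls depended on single retinae. With 1 retina left out, 0 to 3 microglia markers were called lower (3 without replicate 3 of either genotype), 3 to 5 dividing cell markers lower and 2 to 3 Muller glia markers higher. Of the cone markers 5 were called higher without TKO replicate 3, 4 without DKO replicate 3 and 0 in the other fits. Of the horizontal markers 3 were called lower without TKO replicate 3 and 0 with any other retina left out. The pigment epithelium and bipolar markers each had 1 call without replicate 3 of either genotype and 0 in the other fits, and the lens markers had 1 call without DKO replicate 1 or 2 and 3 in the other fits.

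**Figure D5:**
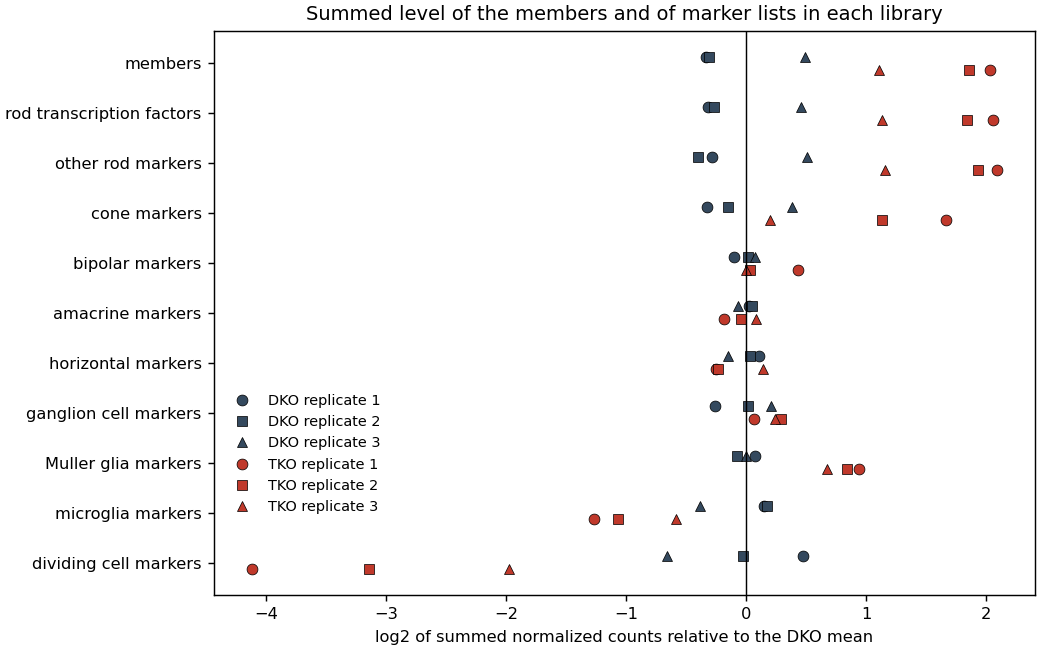
Summed normalized counts of the members and of 10 marker lists in each library, as log2 relative to the mean of the 3 DKO retinae (horizontal axis). Each point is a retina (blue DKO, red TKO, with circle, square and triangle for replicates 1, 2 and 3). The members, rod transcription factors, other rod markers and Muller glia markers are higher and dividing cell and microglia markers lower in each TKO than in each DKO retina.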

How the data were processed

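Total RNA of whole retinae was made into stranded poly(A) mRNA libraries and sequenced as read pairs on an Illumina instrument. The deposited values are raw counts per gene symbol, without normalization, 1 column per retina. For the alignment and counting the paper names STAR on GRCm38, with reads of several alignments allowed, and HTSeq. The submitters' processing notes instead name TopHat2 and featureCounts with mm10 and GRCm38. Both sources name DESeq2. The strand setting of the counting is not given in the sources used here. Groups and replicate numbers came from the sample titles, and nothing says that numbers mark a litter, so retinae were treated as independent. The p-values set the difference between the groups against the spread between these retinae.

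Genes with a sum under 10 counts were removed, and edgeR 4.0.16 in R 4.3.3 (TMM, quasi-likelihood F test, default arguments) was fitted on 16904 genes with Benjamini-Hochberg adjustment over all of them. The SE of a log2 fold change was taken as its size over the root of the F statistic. The test was tested on simulated data with known changes. Ratios and shares used exact permutation tests (scipy 1.17.1). Library totals of 10343907 to 14203098 set the counting precision, which was smaller than the spread between retinae. Positions and lengths came from GENCODE M21 on GRCm38, in which 22711 of 24062 symbols (94.4%) were found, and promoters from RefSeq.

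The text names the members, Hells, the 3 genes of each list with the largest mean count, genes of a list called against the members' direction, and the 5 genes with the nearest profile. Other genes named were chosen after their values were seen, as were the motifs, the subunit pairs and the rod to cone pairs. The members and lists were chosen with earlier results of these data known. The alternatives were DESeq2 1.42.0, other scalings and filters, robust dispersion estimates, a replicate block, each retina left out, a threshold of 0.01, other denominators and another gene length. Removing mitochondrial genes from the total changed no share because no symbol starts with mt-. Some genes of the rod response are not reported here.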

Additional observations from a re-analysis of the deposited data

How the results depend on the processing

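Under DESeq2, RLE scaling, total counts only, both other filters and robust dispersion estimates, the 8 members stayed higher in TKO retinae with an adjusted p of at most 0.0325. In the edgeR fit as reported, 4 of 8 (by either rule) passed at 0.01. Deviations of same-numbered retinae were little correlated (0.052, -0.045 and -0.16), which with 3 retinae a group cannot exclude a pairing. With the replicate block as a term, 0 of 8 members passed by either rule (edgeR adjusted p 0.0589 to 0.0690), with log2 fold changes of 1.88 (Gnat1), 1.35 (Gnb1), 1.69 (Gngt1), 1.61 (Pde6a), 2.03 (Pde6b), 1.82 (Pde6g), 1.79 (Cnga1) and 1.63 (Cngb1), and 0 genes of the shutoff, partner, other beta and rod transcription factor lists were called. Over all genes, 24 were then called higher and 82 lower (15 and 75 by the 3 criteria), so the block removed most calls of the whole comparison. A threshold of 0.01 left 216 higher and 345 lower (129 and 292 by the 3 criteria). Total counts only gave 778 higher and 2610 lower and gave medians of -0.17 over all genes and -0.18 over the other beta genes and a value of -0.014 for Ric8. DESeq2 called 2 cone counterparts. Robust dispersion estimates lost the calls of Guca1b, Aipl1 and Samd7 (edgeR adjusted p 0.0690, 0.0530 and 0.115). Under this setting 0 cone and 0 pigment epithelium markers were called higher. With the sum of the 8 members as the denominator, the ratio differences of Pde6g and Cnga1 turned positive (0.079 and 0.065). With 1 retina left out, log2 fold changes were 1.66 to 2.24 (Gnat1), 1.18 to 1.60 (Gnb1), 1.40 to 1.92 (Pde6a) and 1.60 to 2.18 (Pde6g). The other 4 members passed in all 6 of these fits. Calls then ran from 4 to 8 members (either rule), from 4 to 11 shutoff genes, 1 to 7 partners, 0 to 6 cone counterparts, 0 to 2 higher and 0 to 1 lower other beta genes (median -0.13 to 0.12), 3 to 5 rod transcription factors and 1 to 5 other rod markers. All genes called ran from 214 to 1617 higher and 404 to 1973 lower, and by the 3 criteria from 121 to 476 and 312 to 1024. The cause of these changes was not tested. Ratios and shares have 3 retinae a group and cannot fall below p = 0.1 in an exact permutation test.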
